A study of Glycine max with 24 samples.

Results

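The WRKY and NAC transcription factor families were represented on the Soy GeneChip by 133 of the 37641 soybean probesets tested. A probeset was a member when its single gene symbol in the array annotation was WRKY or NAC followed by a number. By this rule 103 probesets for 52 genes belonged to the WRKY family and 30 probesets for 15 genes to the NAC family. All 133 matched a RefSeq gene of soybean by gene ID, and 0 of the 67 genes lay on chromosome 20, which carries the seed protein QTL of the study. The arrays were hybridized with RNA from developing seed of 2 near-isogenic soybean lines, one array per sample. HiPro (HiProt in the labels, germplasm ld04-15154) carries the high protein allele of wild soybean, Glycine soja, at the QTL, and LoPro (LoProt, germplasm ld04-15146) carries the allele of cultivated soybean, Glycine max. Seed was sampled by weight at stage 1 (25 to 50 mg), stage 2 (50 to 100 mg), stage 3 (100 to 200 mg) and stage 4 (200 to 300 mg), with 3 arrays for each line and stage. Plants were grown in chambers in soil with Bradyrhizobium inoculant, seed of 3 plants was pooled for each replicate, and each such pool of plants gave seed at all 4 stages. No untreated or unrelated control line was among the 24 arrays, and the 2 lines are 1 pair of germplasm lines.

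WRKY proteins bind DNA through a domain that carries the WRKY residues and a zinc finger, and the usual target is the W-box in promoters of defence and senescence genes. NAC proteins are named after NAM, ATAF and CUC, share a DNA-binding domain at the amino terminus, and are known, largely from Arabidopsis, for roles in organ boundaries, secondary walls, senescence and responses to abscisic acid and stress. Both families are large in plants.

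Signals are on the linear MAS5 scale, on which every array has a 2% trimmed mean between 500.14 and 500.17 and a median between 198.6 and 229.3. Pearson's r between replicate arrays lay between 0.941 and 0.966 across probesets on the log2 scale. Most members gave weak signals. Of the WRKY probesets, 64 (62.1%) were in the lowest 30% of mean signal over all soybean probesets, and of the NAC probesets 16 (53.3%). The standard error of a change between stages followed the signal, with a median of 0.757 on the log2 scale for the 64 weak WRKY probesets and 0.204 for the 39 brighter ones, and of 0.891 for the 16 weak NAC probesets and 0.385 for the 14 brighter ones. No detection call was used, so a weak member is reported by its signals alone. Levels were not compared between probesets, because each has its own response.

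By stage 4, 11 of 30 NAC probesets were called in HiPro and 5 in LoPro, and 17 of 103 WRKY probesets in HiPro and 14 in LoPro. Most members were not called, and of the 11 NAC calls in HiPro 8 were increases. Without any 1 of the 3 HiPro pools, 6 NAC calls were left in HiPro. Over all probesets, rises in these 3 fits numbered 2916 to 3727 in place of 4014, and falls 3835 to 4278 in place of 5098. A member was called when limma's adjusted p over all probesets was under 0.05 and the change at least 1.5-fold. In HiPro, 8 of the 30 NAC probesets rose (26.7%) and 3 fell (10%), while 10.7% of all soybean probesets rose and 13.5% fell. The 8 rises were those of NAC14, NAC19 and NAC23, with 2 probesets each, and of NAC2 and NAC34, with 1 each. Another NAC34 probeset fell. In LoPro, 4 NAC probesets rose (13.3%) and 1 fell (3.33%), against 11.3% and 10.4% of all probesets. WRKY probesets were called in both directions about equally. In HiPro 8 of 103 rose (7.77%) and 9 fell (8.74%), and in LoPro 7 rose and 7 fell (6.8% each), so that each share lay below that of all probesets. The median change of NAC members was 0.73 in HiPro and -0.01 in LoPro, and that of WRKY members was -0.09 in HiPro and -0.10 in LoPro, on the log2 scale. Over all probesets the medians were -0.01 in HiPro and 0.08 in LoPro. With the arrays centred on their medians, the HiPro median of all probesets was 0.12, that of NAC members 0.86 and that of WRKY members 0.04.

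**Figure D1:**
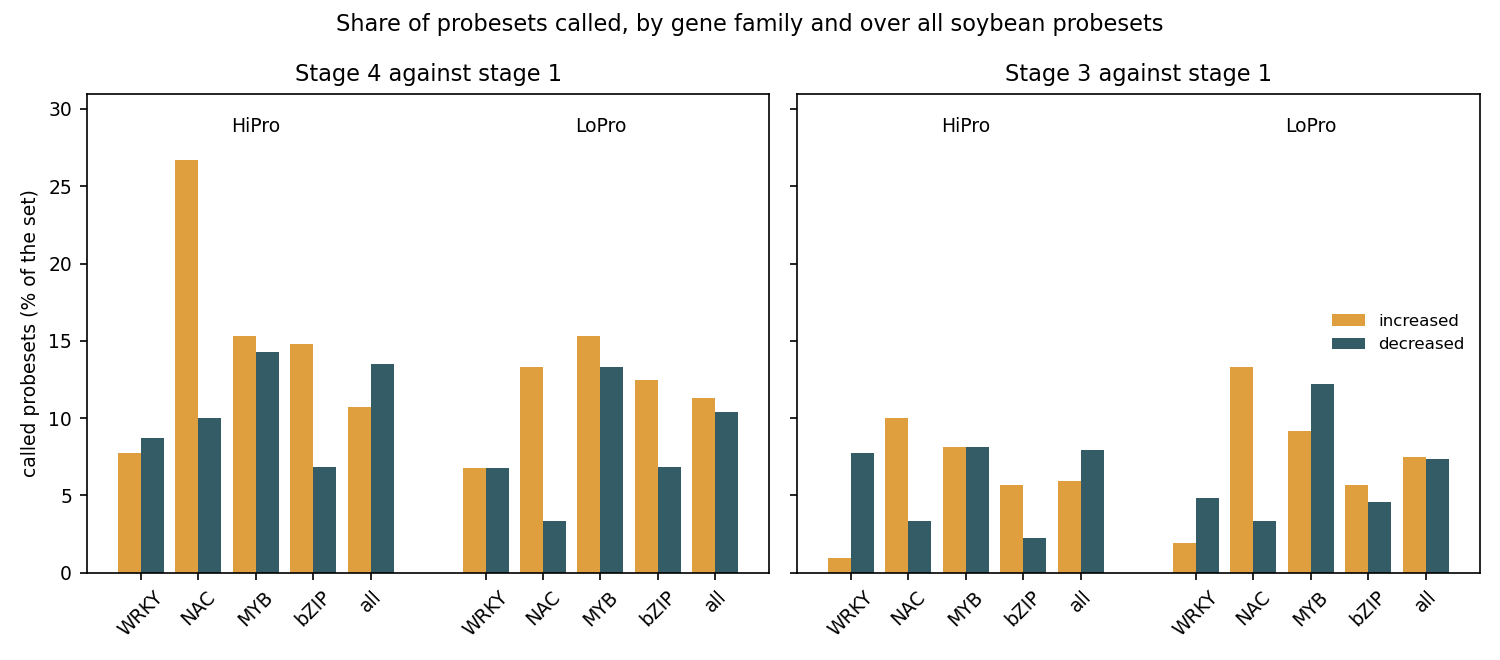
Share of probesets called (percent of the set, linear axis from 0) as increased or decreased at stage 4 (left) and stage 3 (right) against stage 1, for WRKY (103), NAC (30), MYB (98) and bZIP (88) probesets and all 37641 soybean probesets, HiPro left of LoPro. The highest bar is the 26.7% of NAC probesets that rose by stage 4 in HiPro, where NAC14, NAC19 and NAC23 count 2 probesets each. WRKY bars lie below those of all probesets at stage 4.

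Compared with the other transcription factor families chosen by symbol, the WRKY family had the lowest share of calls by stage 4. In HiPro 16.5% of WRKY, 36.7% of NAC, 29.6% of MYB and 21.6% of bZIP probesets were called in either direction. In LoPro the shares were 13.6% of WRKY, 16.7% of NAC, 28.6% of MYB and 19.3% of bZIP probesets. Of all probesets, 24.2% were called in HiPro and 21.7% in LoPro. Precision differed, with a median standard error of 0.418 for WRKY, 0.592 for NAC, 0.345 for MYB and 0.231 for bZIP probesets. Among the 39 brighter WRKY probesets 8 were called in HiPro and 6 in LoPro. These are counts of the families' members without a test between families, and probesets of 1 gene are not independent.

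Of the WRKY members, 4 probesets of 3 genes rose by stage 4 in both lines. The steepest was WRKY27 (Gma.10818.2.S1_a_at), a gene known in soybean for tolerance to salt and drought. Its signals were 378, 275 and 286 at stage 4 and 65.6, 104 and 84.9 at stage 1 in HiPro, and 401, 242 and 236 at stage 4 and 184, 74.7 and 60.2 at stage 1 in LoPro. Every stage 4 array lay above every stage 1 array of the same line. The change was 1.90 in HiPro (adjusted p = 0.00026) and 1.60 in LoPro (adjusted p = 0.0015), each with a standard error of 0.35 on the log2 scale. Over stages 1, 2, 3 and 4 the mean signal was 84.8 ± 19.1, 120 ± 16.4, 176 ± 53.9 and 313 ± 56.4 in HiPro and 106 ± 67.8, 138 ± 47.5, 281 ± 28.0 and 293 ± 93.8 in LoPro (SD, n = 3). The mean was higher at each step in both lines, with most of the LoPro difference reached by stage 3. The other 2 WRKY27 probesets were weak and had positive changes that were not called, 1.16 and 1.76 in HiPro and 1.22 and 2.17 in LoPro.

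WRKY51 was covered by 4 probesets, and 2 of them were called in both lines. For Gma.16547.1.S1_s_at the signals were 532, 462 and 585 at stage 4 and 291, 327 and 280 at stage 1 in HiPro. In LoPro they were 699, 679 and 651 at stage 4 and 347, 295 and 317 at stage 1. The groups did not overlap, and this was the most precisely measured rise of the family, 0.81 in HiPro (adjusted p = 4.3e-05) and 1.08 in LoPro (adjusted p = 1.9e-06), with a standard error of 0.12. The weaker probeset GmaAffx.86530.1.S1_at changed by 0.98 in HiPro (adjusted p = 0.0067) and 0.80 in LoPro (adjusted p = 0.027). Its LoPro call was lost in 6 of 9 fits without 1 array or pool, with the largest adjusted p of 0.21 without LoPro replicate 3 (change 0.60), and its HiPro call in 1, without HiPro replicate 2 (change 0.84, adjusted p = 0.1). A probeset that shares its cluster, Gma.16547.1.S1_at, was called in LoPro alone, at 0.81 (adjusted p = 0.0016) against 0.03 in HiPro (adjusted p = 0.92), and the difference between the lines' changes there was -0.78 (unadjusted p = 0.0052, adjusted p = 0.97). Gma.8336.1.S1_at changed by -0.06 in HiPro and 0.39 in LoPro without a call. The suffix s marks a probeset that can bind transcripts of several similar genes.

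WRKY4 (GmaAffx.91449.1.S1_at) had signals of 1091, 1286 and 833 at stage 4 and 551, 675 and 893 at stage 1 in HiPro, where the groups overlapped by 1 array. In LoPro its signals were 1025, 1087 and 1166 at stage 4 and 537, 1021 and 643 at stage 1. The changes of 0.60 in HiPro (adjusted p = 0.028) and 0.63 in LoPro (adjusted p = 0.025) lay just above the 1.5-fold limit of 0.585. Leaving out 1 array or plant pool ended the HiPro call in 6 fits, with the largest adjusted p of 0.28 without HiPro replicate 1 (change 0.41), and the LoPro call in 6 fits, with the largest adjusted p of 0.20 without LoPro replicate 1 (change 0.48). By contrast, WRKY27 and WRKY51 (Gma.16547.1.S1_s_at) kept both calls in every such fit.

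**Figure D2:**
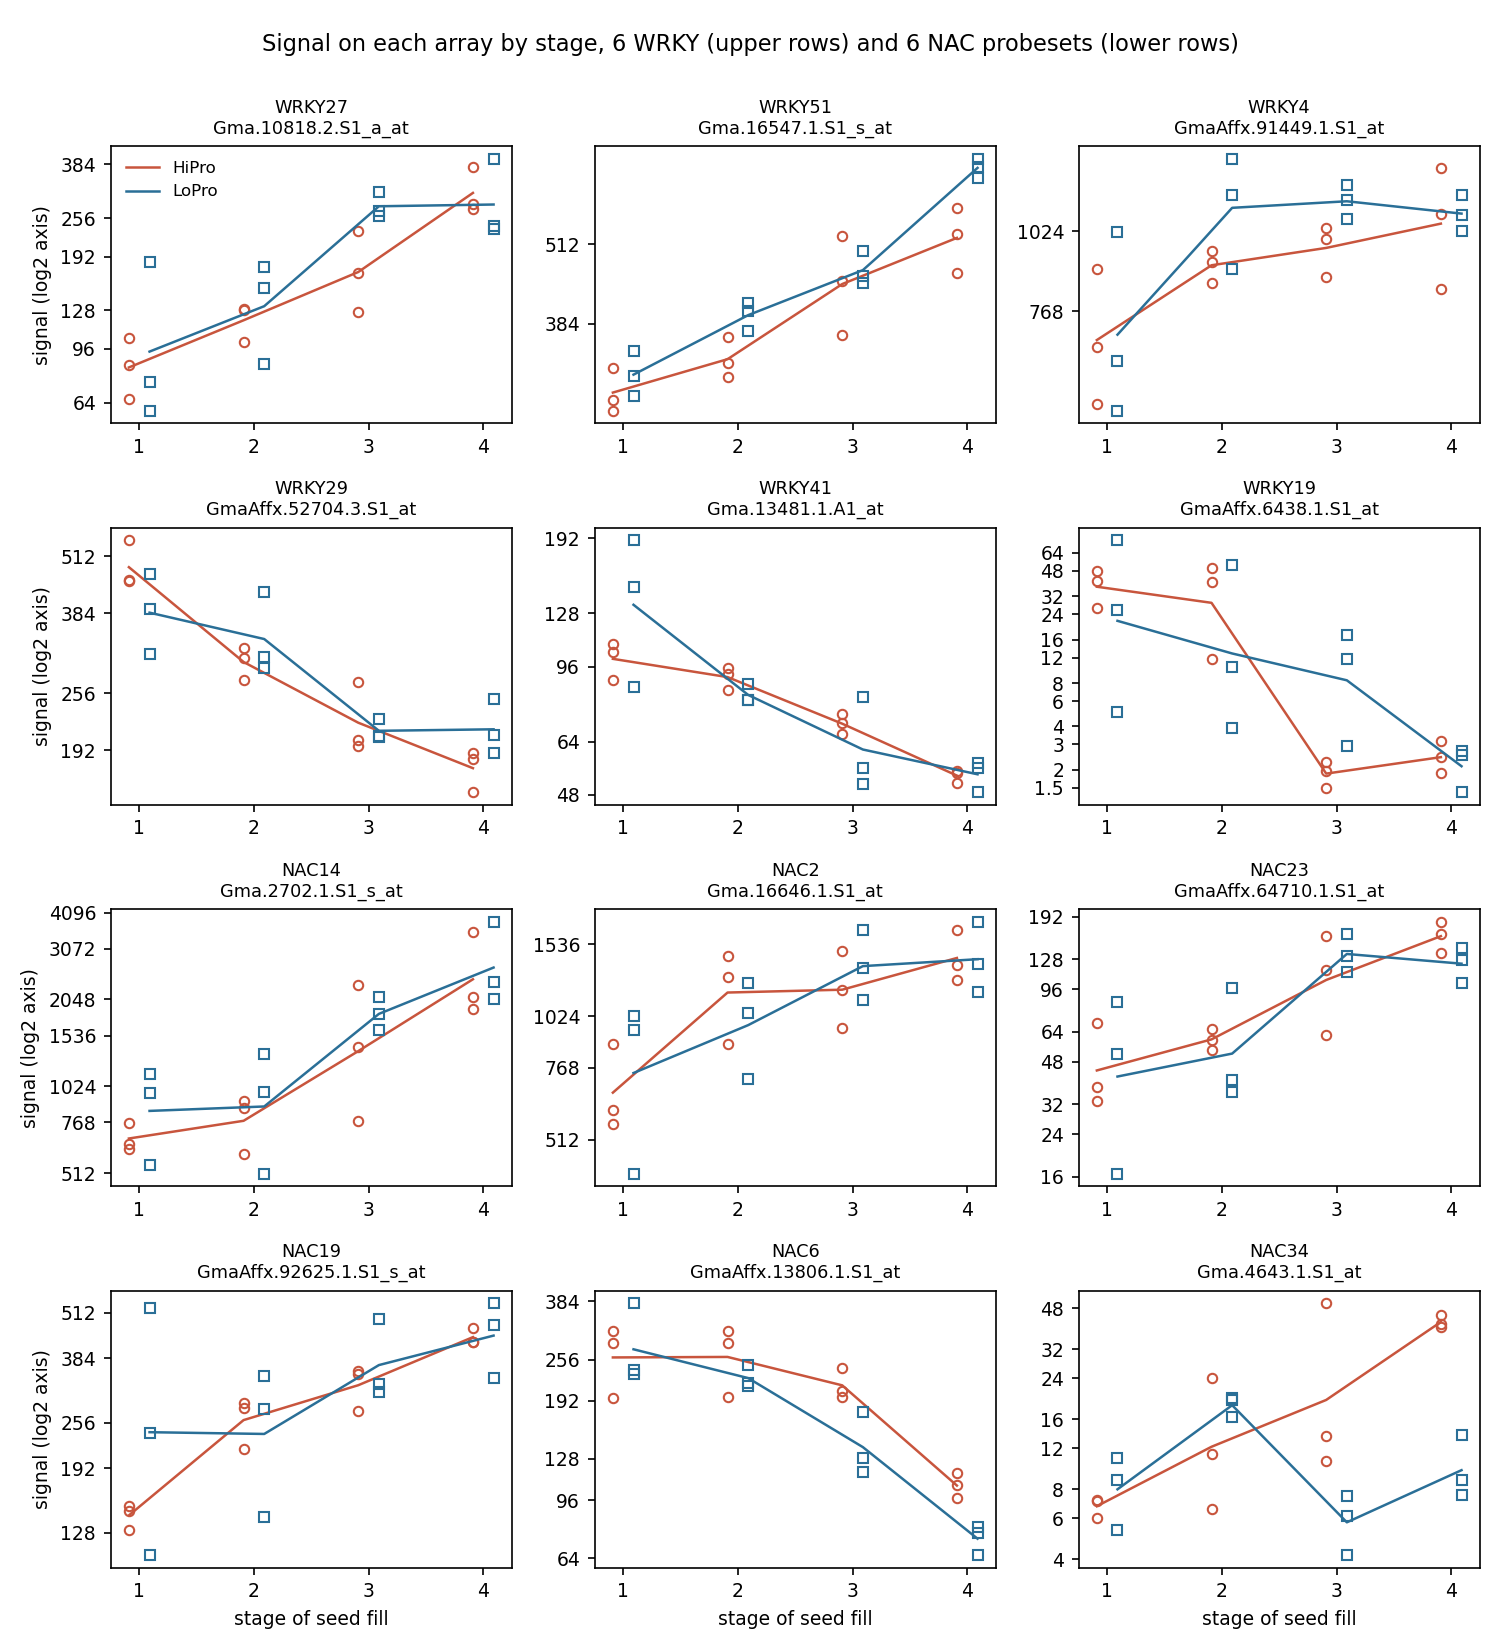
Signal of 6 WRKY probesets (upper rows) and 6 NAC probesets (lower rows) on each array by stage of seed fill, on log2 axes that differ between panels; circles are HiPro arrays, squares LoPro arrays, and lines join the means of log2 signal of the 3 arrays. WRKY27 and NAC14 rise in both lines, WRKY29 and NAC6 fall in both, and NAC34 reaches 39.7 to 45 at stage 4 in HiPro and 7.57 to 13.7 in LoPro.

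Decreases shared by the lines involved 6 WRKY probesets of 6 genes. Among them was WRKY29 (GmaAffx.52704.3.S1_at), whose signals stood well above the weak range. Its signals were 183, 190 and 156 at stage 4 and 453, 555 and 451 at stage 1 in HiPro, and 248, 189 and 207 at stage 4 and 391, 312 and 467 at stage 1 in LoPro. The groups did not overlap in either line. The change was -1.46 in HiPro (adjusted p = 2.3e-06) and -0.85 in LoPro (adjusted p = 0.00095), with a standard error of 0.17, and both calls held in every fit without 1 array or pool. Means over stages 1 to 4 were 486 ± 59.3, 301 ± 24.5, 223 ± 41.3 and 176 ± 18.1 in HiPro and 390 ± 77.6, 342 ± 74.3, 212 ± 11.3 and 215 ± 30.2 in LoPro (SD, n = 3), so the mean was lower at every step in HiPro and differed little between stages 3 and 4 in LoPro. Its HiPro value at stage 2 (-0.69, adjusted p = 0.057) gave the lowest adjusted p of the family for that stage. The weaker second probeset of WRKY29, GmaAffx.52704.1.A1_at, fell in HiPro (-1.01, adjusted p = 0.049) and changed by -0.92 in LoPro (adjusted p = 0.078).

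WRKY19 (GmaAffx.6438.1.S1_at) was one of the weak probesets. It had 3.16, 2.45 and 1.89 at stage 4 and 47.5, 26.7 and 40.7 at stage 1 in HiPro, and 2.69, 1.40 and 2.52 at stage 4 and 78.4, 25.7 and 5.01 at stage 1 in LoPro. No stage 4 array reached a stage 1 array of its line, and the changes were -3.93 in HiPro (adjusted p = 0.0027) and -3.35 in LoPro (adjusted p = 0.01), with a standard error of 0.93. All stage 4 signals lay under the 10th percentile of the array signals (14.6). With signals raised to that floor the changes were -1.35 in HiPro (adjusted p = 0.064) and -1.08 in LoPro (adjusted p = 0.14), and neither was called. Without LoPro stage 1 replicate 1 the LoPro change was -2.42 (adjusted p = 0.071). The LoPro call was lost in 3 of 9 fits without 1 array or pool.

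WRKY34 (GmaAffx.83326.2.S1_at) was also weak, with 4.98, 19.1 and 3.39 at stage 4 and 63.0, 68.1 and 44.2 at stage 1 in HiPro. In LoPro it gave 1.85, 17.7 and 10.1 at stage 4 and 44.2, 33.5 and 35.1 at stage 1. The changes were -3.07 in HiPro (adjusted p = 0.0035) and -2.43 in LoPro (adjusted p = 0.019). With signals raised to 14.6 they were -1.85 in HiPro (adjusted p = 0.00029) and -1.26 in LoPro (adjusted p = 0.0068), both called. Without LoPro replicate 1 the LoPro change was -1.36 (adjusted p = 0.23), and without HiPro replicate 1 the HiPro change was -2.77 (adjusted p = 0.055). Fits without 1 array or pool ended the LoPro call in 4 of 9 and the HiPro call in 1. All 4 probesets of WRKY34 and all 3 of WRKY19 had negative changes in both lines.

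WRKY41 (Gma.13481.1.A1_at) and WRKY54 (Gma.18069.1.S1_at) fell with small spread at stage 4. For WRKY41 the stage 4 signals were 54.2, 51.2 and 54.5 in HiPro and 57.1, 55.5 and 48.7 in LoPro, and the stage 1 signals 108, 104 and 89.3 in HiPro and 147, 190 and 86.0 in LoPro. The changes were -0.91 in HiPro (adjusted p = 0.0059) and -1.32 in LoPro (adjusted p = 0.00029). The HiPro call was lost in 2 of 9 fits without 1 array or pool. The largest adjusted p came without HiPro replicate 2 (-0.86, adjusted p = 0.075). WRKY54, which has been tied to salt and drought tolerance in transgenic Arabidopsis, changed by -1.16 in HiPro (adjusted p = 0.0026) and -0.84 in LoPro (adjusted p = 0.025). Its HiPro call was lost in 1 of 9 such fits, without HiPro replicate 2 (-0.71, adjusted p = 0.12). Its LoPro call was lost in 5, with the largest adjusted p without LoPro replicate 1 (-0.66, adjusted p = 0.18). The sixth decrease in both lines was that of WRKY10 (GmaAffx.37060.1.S1_at), with -1.04 in HiPro (adjusted p = 0.0018) and -0.77 in LoPro (adjusted p = 0.018).

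A further 11 WRKY probesets were called by stage 4 in 1 line only, 7 in HiPro and 4 in LoPro, and 82 were called in neither. Those of HiPro included WRKY22 (GmaAffx.77950.1.S1_at), with signals of 412, 298 and 318 at stage 4 and 625, 580 and 546 at stage 1 in HiPro and of 522, 480 and 373 at stage 4 and 519, 546 and 573 at stage 1 in LoPro. The groups were separate in HiPro and overlapped in LoPro, with changes of -0.78 (adjusted p = 0.00014) in HiPro and -0.27 (adjusted p = 0.15) in LoPro. The difference between these changes was -0.52 (unadjusted p = 0.013, adjusted p = 0.97), so it did not pass the test over all probesets. WRKY36 (GmaAffx.14300.1.S1_at) had 2.37, 2.19 and 1.24 at stage 4 and 12.4, 9.86 and 4.65 at stage 1 in HiPro and 6.81, 9.54 and 26.1 at stage 4 and 1.06, 3.05 and 2.17 at stage 1 in LoPro. It rose in LoPro (2.64, adjusted p = 0.025) and changed by -2.16 in HiPro (adjusted p = 0.061), and the difference of -4.80 had an adjusted p of 0.97. Of these signals only 26.1 lay above the 10th percentile of 14.6, and with signals raised to that floor LoPro was not called (0.28, adjusted p = 0.14). WRKY22 and WRKY36 are described because of the values they had.

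The steadiest WRKY members of the upper range of signals were WRKY7 (Gma.6683.1.S1_at), WRKY24 (GmaAffx.84420.1.S1_at) and WRKY35 (GmaAffx.72876.1.S1_at). WRKY24 had 732, 877 and 715 at stage 4 and 801, 885 and 746 at stage 1 in HiPro, and 856, 778 and 719 at stage 4 and 874, 936 and 698 at stage 1 in LoPro. Its changes were -0.07 in HiPro and -0.08 in LoPro, with a standard error of 0.15. The changes of WRKY7 were -0.09 in HiPro and 0.11 in LoPro, and those of WRKY35 -0.09 in HiPro and -0.10 in LoPro, with standard errors of 0.12 and 0.11. These 3 were chosen for the smallest mean change by stage 4, so the lack of a call for them is not a test of steadiness. With array medians aligned the HiPro changes of all 3 turned positive, at 0.04 for WRKY7, 0.06 for WRKY24 and 0.04 for WRKY35.

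In the NAC family, 4 probesets of 3 genes rose by stage 4 in both lines. NAC14 was represented among them by 2 probesets, Gma.2702.1.S1_s_at and the weak GmaAffx.11178.1.A1_at. The first had 3504, 2087 and 1906 at stage 4 and 766, 622 and 644 at stage 1 in HiPro, and 3813, 2055 and 2356 at stage 4 and 971, 1127 and 544 at stage 1 in LoPro. The groups did not overlap, the changes were 1.83 in HiPro (adjusted p = 0.00067) and 1.65 in LoPro (adjusted p = 0.002), with a standard error of 0.37, and both calls held in every fit without 1 array or pool. Means over stages 1 to 4 were 678 ± 77.7, 790 ± 169, 1490 ± 764 and 2499 ± 875 in HiPro and 880 ± 302, 939 ± 411, 1835 ± 242 and 2741 ± 940 in LoPro (SD, n = 3). Most of the increase came after stage 2 in both lines.

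The weak NAC14 probeset had 157, 72.3 and 52.2 at stage 4 and 14.5, 16.8 and 25.0 at stage 1 in HiPro, and 181, 34.5 and 66.7 at stage 4 and 32.4, 25.7 and 8.72 at stage 1 in LoPro. It changed by 2.20 in HiPro (adjusted p = 0.0081) and 1.95 in LoPro (adjusted p = 0.019), and replicate 1 was the highest of the stage 4 arrays in each line. Without HiPro replicate 1 the HiPro change was 1.58 (adjusted p = 0.13), and without LoPro replicate 3 the LoPro change was 1.45 (adjusted p = 0.19). Fits without 1 array or pool ended the HiPro call in 3 of 9 and the LoPro call in 4. The remaining NAC14 probeset, Gma.2702.2.S1_at, had 603, 219 and 153 at stage 4 and 187, 227 and 114 at stage 1 in HiPro, with overlap, and was not called in HiPro (0.69, adjusted p = 0.26) or LoPro (0.63, adjusted p = 0.31).

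NAC2 (Gma.16646.1.S1_at) had 1665, 1258 and 1370 at stage 4 and 876, 560 and 606 at stage 1 in HiPro, and 1743, 1378 and 1171 at stage 4 and 1028, 950 and 423 at stage 1 in LoPro. Its changes were 1.09 in HiPro (adjusted p = 0.0063) and 0.92 in LoPro (adjusted p = 0.02), with a standard error of 0.29. Stage 1 replicate 3 was the lowest LoPro array, and without it the LoPro change was 0.51 (adjusted p = 0.17). Without HiPro replicate 2 the HiPro change was 1.05 (adjusted p = 0.057). Fits without 1 array or pool ended the LoPro call in 3 of 9 and the HiPro call in 2. NAC23 (GmaAffx.64710.1.S1_at) gave 163, 136 and 183 at stage 4 and 32.9, 69.6 and 37.6 at stage 1 in HiPro, and 102, 142 and 127 at stage 4 and 85.2, 51.5 and 16.4 at stage 1 in LoPro. The changes were 1.85 in HiPro (adjusted p = 0.0048) and 1.56 in LoPro (adjusted p = 0.017). Without LoPro replicate 3 the LoPro change was 0.86 (adjusted p = 0.23), and without HiPro replicate 1 the HiPro change was 1.63 (adjusted p = 0.067). This weak probeset lost its LoPro call in 4 of 9 such fits and its HiPro call in 2.

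NAC6 (GmaAffx.13806.1.S1_at), known in soybean as a promoter of cell death under stress of the endoplasmic reticulum and osmotic stress, was the NAC member that fell in both lines. Its signals were 97.2, 116 and 106 at stage 4 and 287, 312 and 196 at stage 1 in HiPro, and 79.3, 65.3 and 76.1 at stage 4 and 379, 238 and 231 at stage 1 in LoPro. The change was -1.29 in HiPro (adjusted p = 0.00015) and -1.91 in LoPro (adjusted p = 2.3e-06), with a standard error of 0.22, and both calls held in every fit without 1 array or pool. Means over stages 1 to 4 were 265 ± 61.2, 266 ± 60.3, 215 ± 24.1 and 107 ± 9.37 in HiPro and 283 ± 83.8, 225 ± 18.5, 141 ± 32.5 and 73.6 ± 7.31 in LoPro (SD, n = 3). At stage 3 it was called in LoPro (-0.99, adjusted p = 0.0035) and not in HiPro (-0.28, adjusted p = 0.44), and all stage 4 HiPro arrays lay above all stage 4 LoPro arrays. The difference between the stage 4 changes was 0.62 (unadjusted p = 0.063, adjusted p = 1).

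The other 6 NAC calls by stage 4 were made in HiPro alone. Both probesets of NAC19 rose there. GmaAffx.92625.1.S1_s_at had 427, 427 and 465 at stage 4 and 152, 147 and 131 at stage 1 in HiPro, and 544, 472 and 339 at stage 4 and 240, 526 and 111 at stage 1 in LoPro. Its HiPro arrays were tight and apart, and its LoPro stage 1 arrays spanned the LoPro stage 4 range in part, with changes of 1.62 in HiPro (adjusted p = 0.0023) and 0.88 in LoPro (adjusted p = 0.088). The second, Gma.4774.2.S1_at, changed by 1.17 in HiPro (adjusted p = 0.027) and 0.47 in LoPro (adjusted p = 0.41). NAC23 (GmaAffx.90313.1.S1_s_at) rose in HiPro (1.23, adjusted p = 0.03) and changed by 0.88 in LoPro (adjusted p = 0.13), and 7 of the fits without 1 array or pool ended the HiPro call, up to an adjusted p of 0.19 without HiPro replicate 3 (change 1.02). NAC51 (GmaAffx.92849.1.S1_at) had 19.9, 1.62 and 2.86 at stage 4 and 33.8, 59.7 and 28.1 at stage 1 in HiPro, fell there by 3.09 (adjusted p = 0.0033) and changed by -1.27 in LoPro (adjusted p = 0.22). With signals raised to 14.6, which lies above 2 of its HiPro stage 4 signals, the HiPro change was -1.25 (adjusted p = 0.026).

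NAC34 gave opposite calls on different probesets in HiPro. The weak Gma.4643.1.S1_at had 39.7, 41.2 and 45 at stage 4 and 6.05, 7.14 and 7.19 at stage 1 in HiPro, and 13.7, 8.76 and 7.57 at stage 4 and 8.75, 10.9 and 5.37 at stage 1 in LoPro. It rose in HiPro (2.63, adjusted p = 0.00086) and changed by 0.27 in LoPro (adjusted p = 0.76). The difference of 2.36 between the lines' changes had an unadjusted p of 0.0061 and an adjusted p of 0.97. Its stage 1 signals in HiPro and all these LoPro signals lay under 14.6, and with signals raised to that floor the HiPro change was 1.52 (adjusted p = 0.0011, called) and the difference between the lines was not called (adjusted p = 0.77). Its brighter probeset GmaAffx.32328.1.A1_at had 108, 81.5 and 80.1 at stage 4 and 144, 137 and 169 at stage 1 in HiPro and fell there (-0.75, adjusted p = 0.047), while Gma.4643.2.S1_at changed by -0.34 in HiPro (adjusted p = 0.83). A gene level direction for NAC34 was therefore not given.

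Among NAC members with signals in the upper range, both probesets of NAC22 changed least. GmaAffx.93624.1.S1_at had 413, 305 and 326 at stage 4 and 380, 326 and 404 at stage 1 in HiPro, and 371, 367 and 372 at stage 4 and 359, 408 and 350 at stage 1 in LoPro. Its changes were -0.09 in HiPro and -0.01 in LoPro, with a standard error of 0.17, and turned to 0.04 and 0.01 with array medians aligned. For GmaAffx.32877.1.S1_at they were -0.09 in HiPro and 0.40 in LoPro, and without LoPro stage 1 replicate 2 the LoPro change was 0.73 (adjusted p = 0.038).

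**Figure D3:**
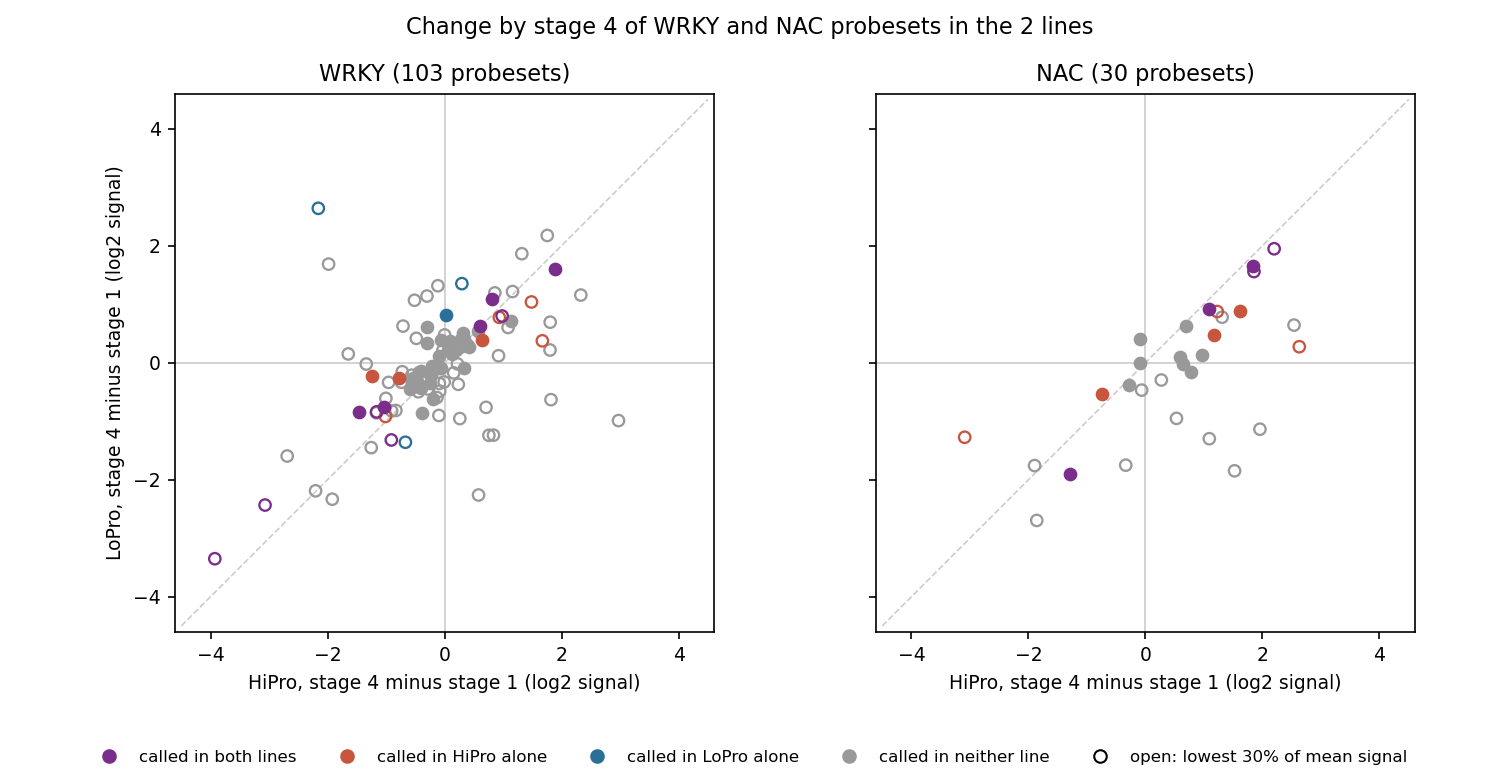
Change of log2 signal at stage 4 against stage 1 in HiPro (horizontal) and LoPro (vertical) for each of the 103 WRKY and 30 NAC probesets, coloured by the line in which it was called, with open circles for the lowest 30% of mean signal and a dashed line of equal change. Members called in both lines (10 WRKY, 5 NAC) lie near the dashed line, and most NAC probesets (25 of 30) lie below it.

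Within each family the changes of the lines, which share no arrays, ran together for the brighter members. Pearson's r across probesets was 0.833 for the 39 brighter WRKY probesets and 0.874 for the 14 brighter NAC probesets, and 0.487 over all 103 WRKY and 0.652 over all 30 NAC probesets. Probesets of 1 gene share their target, so these are descriptions. Of the 17 WRKY calls in HiPro, 10 (58.8%) were also made in LoPro, which is 71.4% of the 14 LoPro calls. Of the 11 NAC calls in HiPro, 5 (45.5%) were also made in LoPro, which is 100% of its 5 calls. No member was called up in one line and down in the other. These overlaps and correlations were not worked out over all probesets, of which 24.2% were called in HiPro and 21.7% in LoPro. They are therefore not read as particular to the families.

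One LoPro plant pool gave low NAC signals early in seed fill. Of the 3 LoPro arrays of stage 1, replicate 3 gave the lowest signal for 26 of the 30 NAC probesets (86.7%), for 53.4% of WRKY probesets and for 36% of all soybean probesets. The array of the same LoPro pool was lowest for 24 of 30 NAC probesets (80%) and 39.2% of all probesets at stage 2. At stages 3 and 4 it was lowest for 11 and 15 of 30, against 30.8% and 33.7% of all. In HiPro, where replicate 3 came from other plants, that replicate was lowest for 23 of 30 (76.7%) at stage 2 and 18 of 30 (60%) at stage 3. These stand against 43.6% and 32.5% of all probesets. At HiPro stages 1 and 4 it was lowest for 11 and 12 of 30, against 31.8% and 40.7% of all. Without LoPro stage 1 replicate 3, 9 of 30 NAC probesets in place of 14 had a positive change by stage 4 in LoPro, the median change was -0.38 in place of -0.01, and 3 in place of 5 were called. The number of HiPro probesets with a positive change, 20 of 30, does not depend on that array.

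By stage 3 fewer members had passed the test. In HiPro 1 WRKY probeset rose and 8 fell, and 3 NAC probesets rose and 1 fell, when 5.94% of all probesets rose and 7.93% fell. In LoPro 2 WRKY probesets rose and 5 fell, and 4 NAC probesets rose and 1 fell, when 7.49% of all rose and 7.34% fell. WRKY increases were thus under the share of all probesets, at 0.971% in HiPro and 1.94% in LoPro. With array medians aligned the HiPro counts were 2 rises and 4 falls for WRKY and 5 rises and 1 fall for NAC. With the plant pool as a block, which pairs the stages by design, 11 in place of 7 WRKY probesets were called in LoPro and 7 in place of 4 NAC probesets in HiPro. Calls over all probesets went up too. In LoPro 3218 in place of 2818 rose and 3287 in place of 2761 fell. In HiPro 2563 in place of 2236 rose and 3511 in place of 2985 fell. Stage 3 and stage 4 were compared with the same stage 1 arrays. WRKY27 was called at both, with 1.04 at stage 3 in HiPro (adjusted p = 0.041) and 1.58 in LoPro (adjusted p = 0.0028). Members called at stage 3 and not at stage 4 in a line were weak, with the exception of WRKY23 (Gma.2526.1.S1_x_at), which fell by 1.51 in HiPro (adjusted p = 0.043). WRKY34 (GmaAffx.90598.1.S1_at) had 2.14, 2.15 and 12.8 at stage 3 and 47.4, 79.1 and 27.1 at stage 1 in HiPro (-3.58, adjusted p = 0.019), with all stage 3 signals under 14.6, and changed by -2.20 by stage 4 (adjusted p = 0.11). WRKY30 (GmaAffx.41719.1.S1_at) and WRKY19 (GmaAffx.6438.3.S1_at) fell at stage 3 in HiPro by 2.15 and 1.89 (adjusted p = 0.046 each), and WRKY34 (GmaAffx.83326.1.S1_at) and WRKY9 (GmaAffx.48074.1.S1_at) fell in LoPro by 1.60 (adjusted p = 0.049) and 1.07 (adjusted p = 0.043). NAC23 (GmaAffx.90313.1.S1_s_at) rose at stage 3 in LoPro (1.46, adjusted p = 0.018).

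Single arrays or pools moved these counts. The 4 NAC calls of HiPro became 0 without HiPro stage 1 replicate 3 or without HiPro replicate 1, and the 5 of LoPro became 1 without LoPro stage 1 replicate 3 or all of LoPro replicate 3. The 9 WRKY calls of HiPro ranged from 4, without HiPro stage 1 replicate 1, HiPro replicate 1 or HiPro replicate 2, to 7, and the 7 of LoPro from 3, without LoPro stage 1 replicate 3, to 11, without LoPro stage 3 replicate 1. At stage 4 the 17 WRKY calls of HiPro were 9 without HiPro replicate 2, the 14 of LoPro were 8 without LoPro replicate 1, and the 11 NAC calls of HiPro were 6 without any 1 of the 3 HiPro pools. Calls over all probesets also went down in several of these fits. By stage 3 in HiPro 1303 rose and 1686 fell without HiPro replicate 1, in place of 2236 and 2985. By stage 3 in LoPro 1437 rose and 1732 fell without LoPro replicate 3, in place of 2818 and 2761. By stage 4 in HiPro 2998 rose and 3835 fell without HiPro replicate 2, in place of 4014 and 5098. By stage 4 in LoPro 3162 rose and 3231 fell without LoPro replicate 1, in place of 4252 and 3931.

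At stage 2, 0 members of either family passed limma's test against stage 1 in either line in the fit without the plant pool as a block. With the pool as a block 2 were called in HiPro, WRKY29 (GmaAffx.52704.3.S1_at) at -0.69 (adjusted p = 0.022) and NAC2 (Gma.16646.1.S1_at) at 0.81 (adjusted p = 0.023, against 0.2 without the block), and 0 in LoPro. At an unadjusted p under 0.05 there were 7 WRKY (6.8%) and 2 NAC probesets (6.67%) in HiPro, against 13.2% of all probesets. In LoPro there were 9 WRKY (8.74%) and 1 NAC probesets (3.33%), against 11% of all. Without the block, 1% of all probesets were called in HiPro and 0.406% in LoPro. With the block 455 of all 37641 probesets rose and 488 fell in HiPro, and 298 rose and 146 fell in LoPro. In WRKY29, whose HiPro signals were 274, 306 and 322 at stage 2 and 453, 555 and 451 at stage 1, the groups did not overlap.

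In HiPro the highest mean was that of stage 4 for 32% of WRKY and 35.6% of all probesets and stage 1 for 38.8% of WRKY and 36.8% of all, and in LoPro that of stage 4 for 30.1% of WRKY and 33.5% of all and stage 1 for 34% of WRKY and 28% of all. For NAC probesets stage 4 was the peak for 15 of 30 in HiPro (50%) and 9 of 30 in LoPro (30%), when it was for 35.6% and 33.5% of all probesets. A mean that was higher at each step was seen for 10 of 30 NAC probesets in HiPro and 4 in LoPro, and for 11 of 103 WRKY probesets in HiPro and 12 in LoPro. As shares these were 33.3% of NAC, 10.7% of WRKY and 16.5% of all probesets in HiPro, and 13.3% of NAC, 11.7% of WRKY and 14.6% of all in LoPro.

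Comparing HiPro with LoPro asked whether the QTL allele went with another level of these regulators. No WRKY or NAC probeset was called between the lines at any stage or over the mean of the 4 stages by limma. All probesets were called in 0.0159% of cases at stage 1, 0.0133% at stage 2, 0.0345% at stage 3, 0.0611% at stage 4 and 0.0983% over the mean of stages. Over the mean of stages 9 WRKY (8.74%) and 2 NAC probesets (6.67%) had an unadjusted p under 0.05, against 8.01% of all probesets. The lowest adjusted p was 0.35 for WRKY and 0.41 for NAC. The difference between the lines in the change by stage 4 or by stage 3 gave no call either, in 0% of all probesets for both. By stage 4, 7 WRKY (6.8%) and 1 NAC probesets (3.33%) were under an unadjusted p of 0.05, against 4.93% of all. By stage 3 these were 3 WRKY (2.91%) and 2 NAC probesets (6.67%), against 3.63% of all.

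The smallest p-values for WRKY between the lines were those of WRKY51. Over the mean of stages HiPro minus LoPro was -0.41 for GmaAffx.86530.1.S1_at (95% interval -0.69 to -0.14, unadjusted p = 0.0051, adjusted p = 0.35) and -0.19 for Gma.16547.1.S1_s_at (-0.32 to -0.06, unadjusted p = 0.0059, adjusted p = 0.37). For NAC they were those of NAC6, with a difference of 0.32 (0.09 to 0.55, unadjusted p = 0.0088, adjusted p = 0.41), and NAC34 (Gma.4643.1.S1_at), with 0.76 (0.19 to 1.32, unadjusted p = 0.011, adjusted p = 0.44). The precision differed greatly among members. For 35 of the 39 brighter WRKY probesets and 6 of the 14 brighter NAC probesets the 95% interval lay within 1.5-fold in either direction, which holds for 8 of the 64 weak WRKY and 1 of the 16 weak NAC probesets. For the remaining members the interval did not exclude a difference of that size. These intervals take the arrays of a plant pool at different stages as independent, so they can be too narrow.

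**Figure D4:**
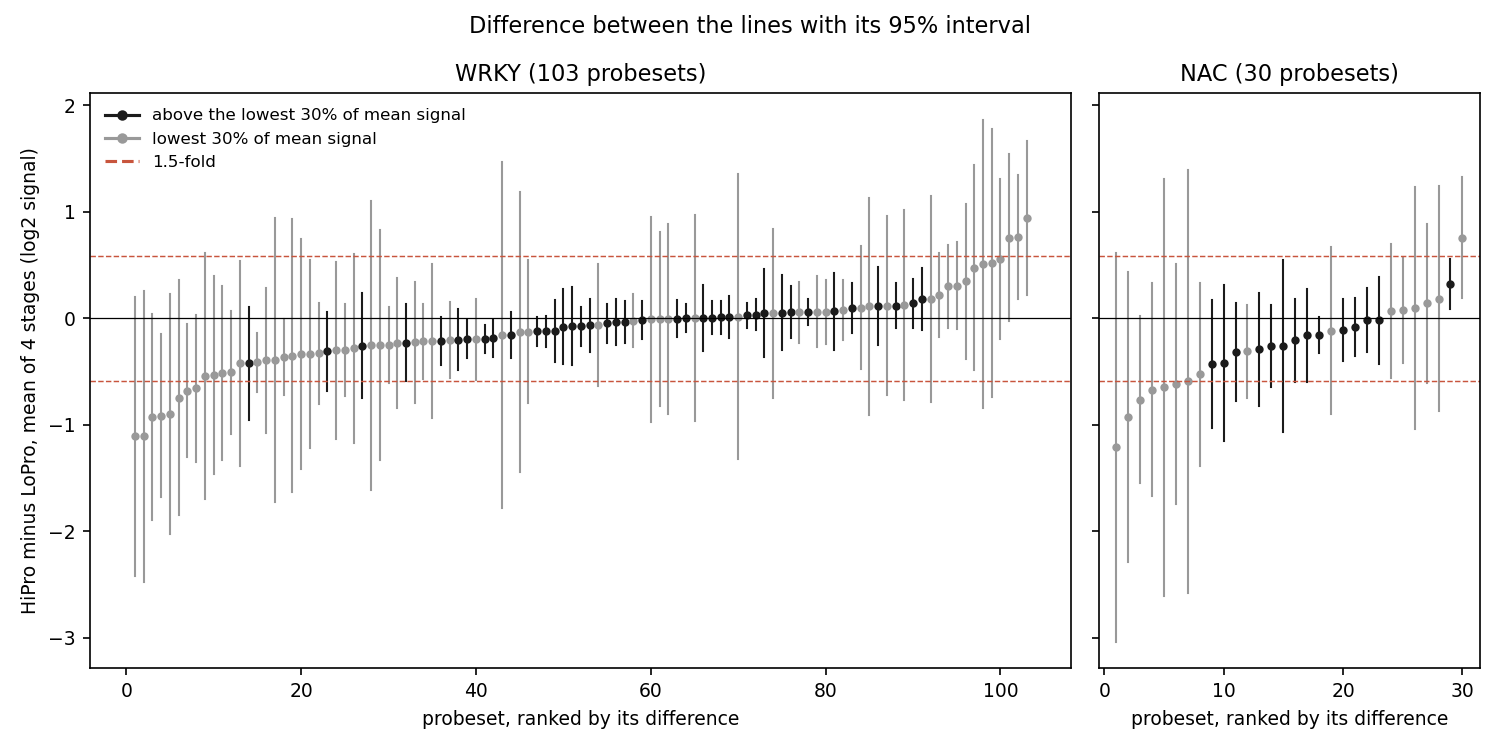
HiPro minus LoPro over the mean of 4 stages (log2 signal) for each WRKY (left) and NAC (right) probeset, ranked by its value, with its 95% interval from limma; black marks are the brighter members, grey marks the lowest 30% of mean signal, and dashed lines mark 1.5-fold. Brighter WRKY members lie between -0.42 and 0.18 and brighter NAC members between -0.43 and 0.32, and grey intervals are wide.

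At stage 1 most NAC members had lower signals in HiPro than in LoPro, without a call for any of them. At stage 1, 25 of 30 NAC probesets were lower in HiPro, with a median difference of -0.37, while 41.5% of all probesets were lower and their median difference was 0.05. Over the mean of stages 23 of 30 were lower. Of the 14 brighter NAC probesets 12 were lower at stage 1 and 13 over the mean of stages. Without LoPro stage 1 replicate 3, the array lowest for most NAC members, 27 of 30 were lower at stage 1 with a median difference of -0.90. Without all arrays of the LoPro replicate 3 pool, NAC26 (Gma.1748.1.S1_at) at -2.44 (adjusted p = 0.024) and NAC19 (GmaAffx.92625.1.S1_s_at) at -1.32 (adjusted p = 0.033) were called at stage 1, and NAC26 at -1.40 (adjusted p = 0.0083) over the mean of stages, against -1.21, -0.76 and -0.77 with all arrays. In that fit 13 of all 37641 probesets were called higher and 128 lower in HiPro at stage 1. Over the mean of stages these were 35 and 139. With all arrays the counts were 1 and 5 at stage 1 and 11 and 26 over the mean of stages. The early arrays of that pool were low for most NAC members. Leaving them out lowers HiPro minus LoPro for these members, so the calls are not a test. The larger upward change of NAC members in HiPro uses the same stage 1 arrays. At stage 4 the signs were 12 lower and 18 higher in HiPro. For the WRKY family 55 of 103 probesets were lower in HiPro at stage 1 and 63 over the mean of stages.

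Where several probesets covered 1 gene, their changes by stage 4 had the same sign within a line for most genes. In the WRKY family 26 genes had more than 1 probeset (77 probesets), and the probesets differed in sign for 8 of these genes in HiPro and 9 in LoPro. In the NAC family 9 genes had more than 1 (24 probesets), and the probesets differed in sign for 2 in HiPro and 4 in LoPro. Over both lines together 3 WRKY and 3 NAC genes had only positive changes, 9 WRKY genes and 1 NAC gene only negative ones, and 14 WRKY and 5 NAC genes had both signs, between probesets or between lines. The genes with only positive changes were WRKY4, WRKY27, WRKY32, NAC14, NAC19 and NAC23. Those with only negative changes were WRKY9, WRKY10, WRKY14, WRKY19, WRKY22, WRKY29, WRKY34, WRKY48, WRKY52 and NAC12. Among the genes with both signs WRKY21, known in soybean for cold tolerance in transgenic Arabidopsis, had 2 weak probesets, of which one changed by 2.97 in HiPro and -0.99 in LoPro and the other was negative in both lines, none of them called. Counted by gene, 8 WRKY genes had a probeset that rose in a line, 9 had one that fell, 0 had both and 35 had none called. Of the NAC genes 5 had one that rose and 3 one that fell, of which NAC34 had both, and 8 had none called.

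**Figure D5:**
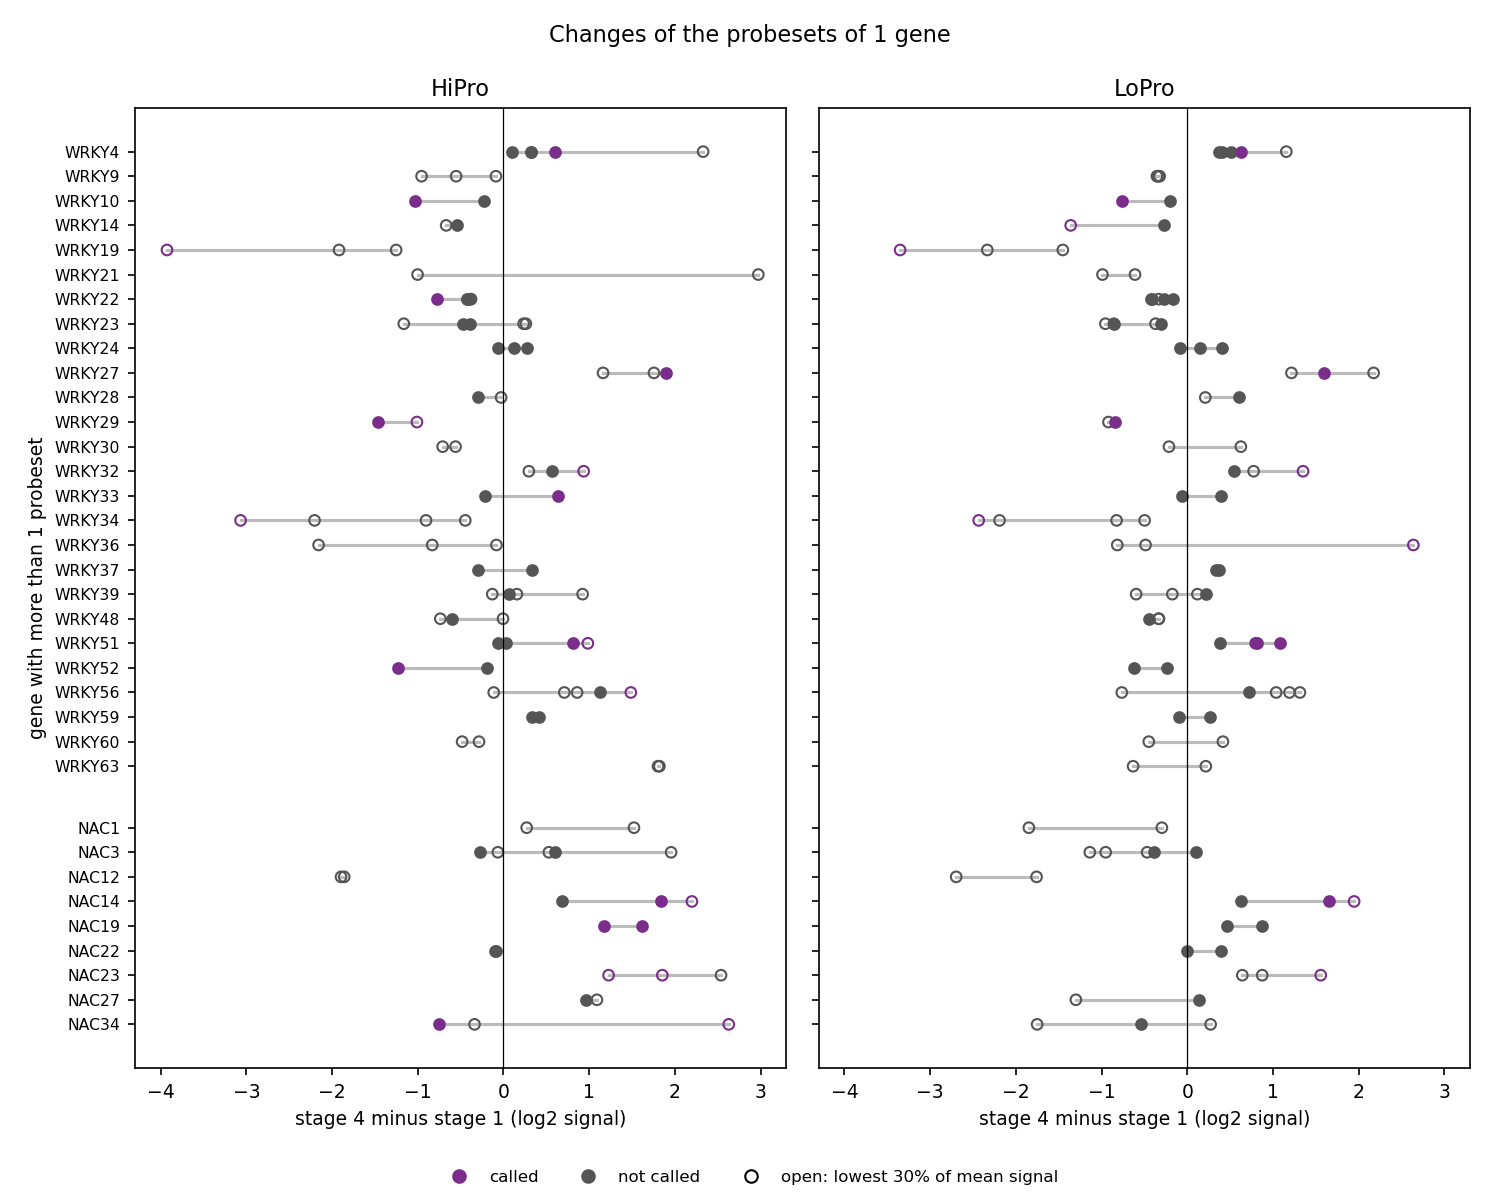
Change of log2 signal by stage 4 in HiPro (left) and LoPro (right) for every probeset of the 26 WRKY and 9 NAC genes with more than 1 probeset; each row is a gene, a grey bar spans its probesets, purple marks are called and open marks belong to the lowest 30% of mean signal. Probesets of WRKY27 and NAC14 lie right of 0 and those of WRKY19 and WRKY34 left of 0 in both lines, and the wide bars of WRKY21, WRKY36 and NAC34 hold weak probesets.

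Signals of the seed tissues shifted over the same stages. Of 12 probesets of 8 embryo and cotyledon genes, including glycinins and beta-conglycinins, 9 rose and 0 fell by stage 4 in HiPro, and 7 rose and 1 fell in LoPro. Their summed signal was 208495 to 264065 at stage 4 and 62568 to 74390 at stage 1 in HiPro, and 197153 to 217710 at stage 4 and 69682 to 141369 at stage 1 in LoPro. Of 6 seed coat probesets, among them the peroxidase Ep and anthocyanidin reductase ANR1, 1 rose and 5 fell in each line, and their summed signal was 9677 to 15239 at stage 4 and 30353 to 39419 at stage 1 in HiPro and 10185 to 16245 at stage 4 and 36332 to 46319 at stage 1 in LoPro. The part of these shifts in the changes of WRKY and NAC members was not tested, and in whole seed fewer cells of a type and less RNA per cell cannot be told apart. For the ubiquitin control the log2 signal at the 3′ end exceeded that at the 5′ end by 2.59 at stage 4 and 4.76 at stage 1 in HiPro and 3.58 at stage 4 and 4.36 at stage 1 in LoPro, and for actin by 4.91 at both stages in HiPro and 4.95 at stage 4 and 4.77 at stage 1 in LoPro. The P450 control had 1.80 at stage 4 and 2.36 at stage 1 in HiPro and 1.54 at stage 4 and 2.43 at stage 1 in LoPro, with the arrays of the stages apart in both lines, and the GlutTrans control 0.145 at stage 4 and 0.631 at stage 1 in HiPro and 0.022 at stage 4 and 0.557 at stage 1 in LoPro. The mean of this measure was thus lower at stage 4 in both lines for 3 of 4 controls, and its part in the results was not tested. For ubiquitin the arrays of the stages overlapped in both lines. They spanned 0.868 to 4.143 at stage 4 and 3.982 to 6.094 at stage 1 in HiPro. In LoPro they spanned 2.326 to 5.933 at stage 4 and 2.82 to 5.451 at stage 1.

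Partners of these families were few on the array under a symbol. MAP kinases phosphorylate WRKY proteins in defence signalling, and of 5 probesets of MAP kinases and their kinases MPK4B rose in LoPro by stage 4 (0.66, adjusted p = 0.0061) and had 0.56 in HiPro (adjusted p = 0.015), under the fold limit, while the other 4 changed by -0.46 to -0.10 in HiPro and -0.42 to -0.02 in LoPro without a call. Of the master regulators of seed maturation, LEC1-A, a subunit of a CCAAT-binding complex known from Arabidopsis embryos, fell by 1.23 in HiPro (adjusted p = 5.8e-07) and by 1.21 in LoPro (adjusted p = 8.9e-07). WRI1B, named after a regulator of oil synthesis in Arabidopsis, changed by -0.02 in HiPro and -0.21 in LoPro without a call.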

How the data were processed

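Transcript accumulation in developing seed of HiPro and LoPro was measured on 24 Affymetrix Soy GeneChips. The deposited values are intensity signals on a linear scale, produced by the authors with MAS5 (version not given in the sources used here) and scaled to a common trimmed mean per array. The authors' methods name RMA for their own tests, and RMA values were not used here. Arrays carry no read depth, and 3 per group limit the precision.

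Control probesets (122) were left out. The log2 signals of 37641 probesets were fitted with limma 3.58.1 in R 4.3.3, with 1 mean for each line at each stage and a variance trend in eBayes. Tests were two-sided, with Benjamini-Hochberg adjustment over all probesets, and a call needed an adjusted p under 0.05 and a change of at least 1.5-fold. The fit was tested on simulated data. The array annotation gave 1 symbol for 8677 probesets, several for 370 and none for 28594, and 11 probesets with several symbols that include a WRKY or NAC gene were left out. The plants of a pool gave all stages, so that pools pair stages in each line by design. Residuals of arrays from the same pool had a mean correlation of 0.096 (lowest -0.004), against 0.080 for equal numbers in different lines and -0.043 for other pairs. The pool was a block only in an alternative fit. P-values of the main fit measure the spread among arrays of the same line and stage, which came from different pools. They take the arrays of a pool at different stages as independent, so between the lines over the mean of stages they can be too small.

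Named members were up to 5 per direction called by stage 4 in both lines, up to 3 called at stage 3 and not at stage 4, the 3 of smallest change among brighter probesets, the 2 of smallest p between lines, and genes with several probesets. Others were chosen after their values were known. Members and lists were chosen with earlier results of these data known. Lists of VQ proteins, abscisic acid signalling, cellulose synthases and nodule genes matched 0 probesets by symbol. Of 5 leaf (CAB3) probesets 0 were called in HiPro and 2 fell in LoPro, and of 8 VSPA probesets 5 fell in HiPro and 6 in LoPro. Alternatives were other array scalings, a floor, a filter on weak probesets, the block, no variance trend, the methods' t-test per probeset, and fits without each array or pool. Direction counts without LoPro replicate 3 were added after seeing the data. Structural classes, promoters and sequences were not analysed here.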

Additional observations from a re-analysis of the deposited data

How the results depend on the processing

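Of the family counts of called probesets, 458 values under an alternative stayed within 1.5 times the count reported and 56 did not. Most comparisons at stage 2 and between the lines had 0 calls in both fits and are among the 458. That total therefore overstates how steady the other counts were. Without the weakest 30% of probesets the WRKY counts by stage 4 were 9 in HiPro and 6 in LoPro and by stage 3 4 in each line, with 1 by stage 2 in HiPro, and the NAC counts were 6 in HiPro and 3 in LoPro by stage 4 and 3 in LoPro by stage 3, where fewer members were tested. That fit held 39 WRKY and 14 NAC probesets. Of its 26348 probesets, 3467 rose and 4240 fell by stage 4 in HiPro, and 3575 and 3355 in LoPro. By stage 3 these were 2064 and 2633 in HiPro and 2506 and 2377 in LoPro. By stage 2 in HiPro they were 240 and 228. With the methods' t-test WRKY had 9 and NAC 6 by stage 4 in HiPro, 4 and 1 in LoPro, 2 and 1 by stage 3 in HiPro, and 0 and 0 in LoPro. Over all 37641 probesets that test gave 2267 rises and 2796 falls by stage 4 in HiPro, and 1382 and 1569 in LoPro. By stage 3 it gave 405 and 571 in HiPro and 86 and 142 in LoPro. That test was not run for differences between the lines' changes. With signals raised to the 10th percentile, and without the variance trend, WRKY had 5 calls by stage 3 in HiPro, and NAC had 3 in LoPro without the trend. Over all probesets the raised signals gave 2180 rises and 2990 falls by stage 3 in HiPro. Without the trend there were 2147 and 2826 in HiPro and 2788 and 2675 in LoPro. The cause of these 3 changes in the members' counts was not tested.

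With the replicate block, the plant pool, WRKY had 11 calls by stage 3 in LoPro (7 without it) and 1 by stage 2 in HiPro, and NAC had 7 by stage 3 in HiPro (4 without it) and 1 by stage 2 in HiPro. By stage 4 the block gave 23 WRKY and 13 NAC calls in HiPro and 17 WRKY and 7 NAC calls in LoPro, within 1.5 times the counts reported. Over all probesets it gave 4310 rises and 5474 falls in HiPro, in place of 4014 and 5098. In LoPro it gave 4602 and 4348, in place of 4252 and 3931.

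Without 1 array or pool, WRKY counts ranged from 9 to 16 in HiPro and 8 to 15 in LoPro by stage 4, 4 to 7 in HiPro and 3 to 11 in LoPro by stage 3, and 0 to 1 in LoPro by stage 2. NAC counts ranged from 6 to 10 in HiPro and 3 to 7 in LoPro by stage 4, 0 to 6 in HiPro and 1 to 6 in LoPro by stage 3, and between the lines 0 to 2 at stage 1 and 0 to 1 over the mean of stages. Counts over all probesets moved as well, as given above for several of these fits.

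Array medians aligned by centring moved the split of rises and falls in HiPro to 10 and 8 for WRKY and 9 and 2 for NAC by stage 4, and to 2 and 4 for WRKY and 5 and 1 for NAC by stage 3. Rises were 58.2% of all HiPro calls by stage 4 after centring, in place of 44.1%. Members that changed sign were WRKY7, WRKY24, WRKY35, WRKY30, NAC22 and NAC34, none of these values being called in the fit to all arrays. With centring the HiPro changes were 0.0365 (WRKY7), 0.0633 (WRKY24), 0.0410 (WRKY35), 0.0368 (NAC22, GmaAffx.93624.1.S1_at) and 0.0416 (NAC22, GmaAffx.32877.1.S1_at), and 0.0145 for the first NAC22 probeset in LoPro. With quantile normalization they were 0.0090 (WRKY7), 0.0033 (WRKY35), 0.0064 and 0.0376 (NAC22) in HiPro and 0.0029 (NAC22) in LoPro. Without 1 array or pool, WRKY30 ranged from -1.7772 to 0.8863 in HiPro and -0.6844 to 0.0684 in LoPro, WRKY24 from -0.2091 to 0.0067 in LoPro, WRKY35 from -0.1742 to 0.0222 in HiPro, NAC34 (Gma.4643.1.S1_at) from -0.0147 to 0.5688 in LoPro, and the NAC22 probesets from -0.2234 to 0.0129 and -0.2624 to 0.1061 in HiPro and -0.0536 to 0.0680 and -0.1130 to 0.7458 in LoPro. The cause was not tested.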
